A study of Avicennia officinalis with 4 samples.

Results

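The 200 most abundant root transcripts of Avicennia officinalis seedlings were taken from 168308 unigenes, the sequences that a de novo assembly joins from overlapping reads. They are the unigenes with the highest mean RPKM (reads divided by the length of the unigene in kilobases and by the library total) over both control libraries, so every control value given for them is a description and not a finding. The rule also left out unigenes numbered in the tables or in the network drawing of the study, but 0 of the 291 numbers read there ranked among the 200 highest. The highest of those 291 stood at rank 614 with a mean control RPKM of 152. A. officinalis is a mangrove tree that secretes salt through its leaves. Roots came from seedlings about 2 months old, raised from field-collected propagules in a greenhouse without NaCl and then moved to sand watered with diluted Hoagland's nutrient solution. The salt group received the same solution with 500 mM NaCl for 24 h and the control group received no such treatment. Each group had 2 mRNA-sequencing libraries, and each library was made from the pooled roots of 3 plants, so differences between single plants were not measured.

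Messenger RNA of a plant root is unevenly spread over genes, and a small number of genes gives a large part of it. The genes at the top of such rankings commonly encode ribosomal proteins, elongation factors, metallothioneins, aquaporins, ubiquitin and tubulins, and fragments of plastid, mitochondrial or ribosomal RNA can also stand there. RPKM divides reads by length, so a short unigene can rank high with few reads and a long one can take many reads at a modest RPKM. The table analysed here gives numbers and lengths of the unigenes but no gene names, so no function is attached to any of the 200, and the tissue label could not be set against root marker genes. They are called by their unigene number (Ug).

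Between 16943847 and 22074032 reads per library lay on the 62900 unigenes with enough reads for a test, and replicate 1 was deeper than replicate 2 in both groups. Differences between libraries were expressed as log2 ratios of CPM (reads scaled to a common library total), scaled by TMM, a factor that corrects for a few unigenes taking many reads, with 0.1 CPM added. Libraries were compared within each replicate number, that is salt 1 with control 1 (pair 1) and salt 2 with control 2 (pair 2). The labels do not say that a number marks a shared day or batch. A lower value in such a bulk library can mean less RNA per cell or fewer cells of a type, and these cannot be told apart.

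The 200 unigenes held 26.4% of the counted reads in control 1, 30.9% in control 2, 26.1% in salt 1 and 28.0% in salt 2. The 95% Wilson intervals of these shares, which cover counting error only, ran from 26.37% to 26.41% in control 1 and from 30.88% to 30.92% in control 2. The share was lower in the salt library of both pairs, by 0.29 percentage points in pair 1 and 2.89 in pair 2, while the control libraries differed by 4.51 percentage points. The group means were 28.6% ± 3.19 (SD, n = 2) in the control and 27.05% ± 1.35 (SD, n = 2) under salt, with an exact two-sided permutation p of 0.667. With 2 libraries against 2 this test cannot go below 0.33. The 200 were also chosen on the control values compared here, so the difference is a description and nothing is read from this p. The difference of the means, -1.59 percentage points, turned to 0.66 without control replicate 2.

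Reads were concentrated further within the 200. The 10 highest held 10.2% of the reads of control 1 and 16.1% of those of control 2, against 9.59% in salt 1 and 14.4% in salt 2. The 50 highest held 16.1%, 22.03%, 15.4% and 19.1% in control 1, control 2, salt 1 and salt 2. The next 800 unigenes of the ranking together held less than the 200 did in every library, between 18.2% and 20.2%. Ranked by the reads of each library itself, 50% of the reads lay on 981 unigenes in control 1, 799 in control 2, 960 in salt 1 and 888 in salt 2.

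**Figure D1:**
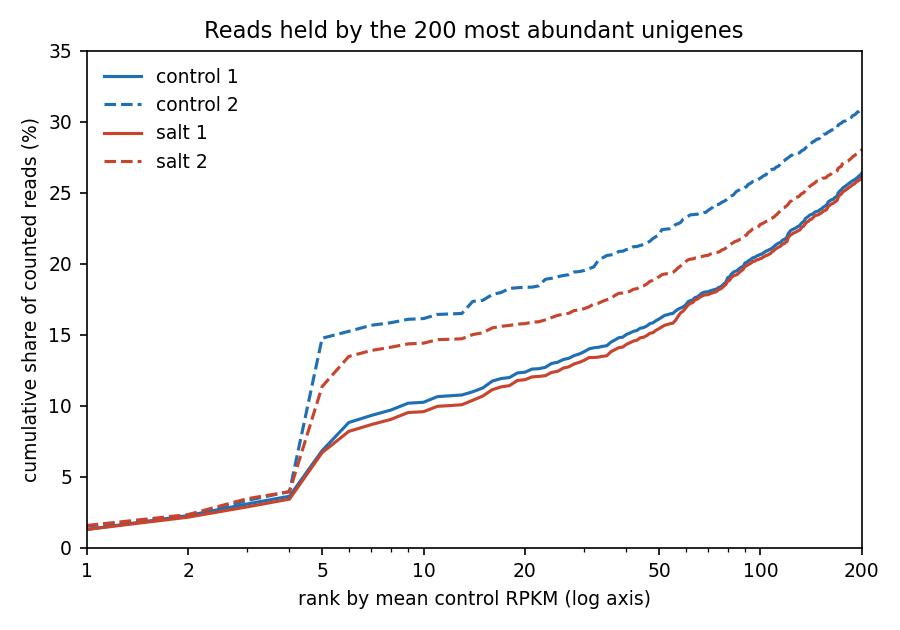
Cumulative share of counted reads (%) against rank by mean control RPKM on a log axis, 1 line per library (blue control, red salt, solid replicate 1, dashed replicate 2). The lines run close together to rank 4, part at rank 5 (Ug12915) and end at 26.4%, 30.9%, 26.1% and 28.0% in control 1, control 2, salt 1 and salt 2.

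The largest share of reads fell on a single long unigene, Ug12915. It has 13339 bp, the greatest length among the 200, and took 720798 reads in control 1, 1922166 in control 2, 712394 in salt 1 and 1267923 in salt 2. This was 3.21% of control 1, 10.8% of control 2, 3.27% of salt 1 and 7.40% of salt 2, so both libraries of replicate 2 were high and those of replicate 1 low. Without it, a step chosen after seeing the data, the other 199 held 23.2% of control 1, 20.1% of control 2, 22.8% of salt 1 and 20.6% of salt 2. The order of the replicates was then opposite, with replicate 1 above replicate 2 in both groups, and the difference of the group means was 0.07 percentage points.

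The lengths of the 200 unigenes had a median of 1094.5 bp, with quartiles of 753 and 1453 bp and a range of 226 to 13339 bp. The median over all 168308 unigenes was 851 bp, and over the 62900 unigenes with enough reads for a test it was 1026 bp. Short unigenes were few, since 8 of the 200 (4%) were under 300 bp, against 19.4% of all unigenes and 7.44% of those tested. Long unigenes were few too, since 18 of the 200 (9%) had 2000 bp or more, against 20.4% of all and 21.5% of those tested. Weighted by reads, the mean length of the 200 was 2905 bp in control 1 and 2920 bp in salt 1 but 5635 bp in control 2 and 4588 bp in salt 2, and it contains Ug12915. Length enters RPKM and hence the ranking, so these lengths describe the choice.

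The 8 shortest unigenes, of 226 to 299 bp, had a lower CPM in control 2 than in control 1 without exception, with log2 ratios of -3.60 to -0.24. The same direction was seen in 129 of all 200 and in 31728 of the 62900 tested unigenes. Whether it goes with length was not tested. The 8 were singled out after their values were seen. In pair 1 all 8 lay within 0.5 on the log2 scale, and in pair 2 it was 6 of the 8.

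Ug18515, of 953 bp, was the most abundant unigene, at an RPKM of 13531 in control 1, 16075 in control 2, 13575 in salt 1 and 16484 in salt 2. Its mean was 14803 ± 1799 (SD, n = 2) in the control and 15030 ± 2057 (SD, n = 2) under salt, and it was first in both groups. Replicate 2 was higher than replicate 1 in both groups, and the groups overlapped. The second, Ug9270 (987 bp), had an RPKM of 9934 in control 1, 6767 in control 2, 8754 in salt 1 and 7806 in salt 2, so its salt values lay between its control values. The third, Ug18512 (1427 bp), had an RPKM of 5754 in control 1, 7997 in control 2, 5107 in salt 1 and 7858 in salt 2, and was high in replicate 2 as Ug18515 was.

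Ug9037 (1079 bp), the fourth, had an RPKM of 5011 in control 1, 5751 in control 2, 5043 in salt 1 and 4523 in salt 2. Its TMM-scaled salt values were both below its control values, by 0.06 and 0.35 on the log2 scale, with an edgeR p of 0.625, whereas by RPKM salt 1 lay just above control 1. Ug12915, the fifth, stood at an RPKM of 2407 in control 1, 8093 in control 2, 2453 in salt 1 and 5550 in salt 2.

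Ug72284 (2380 bp), the sixth, had 444594 reads in control 1, 86953 in control 2, 325898 in salt 1 and 363445 in salt 2, or an RPKM of 8322, 2052, 6289 and 8916 in that order. Control 2 alone was low, and the salt values lay on both sides of control 1. Its log2 ratio was -0.48 in pair 1 and 2.11 in pair 2, so the direction differed between pairs. It held rank 3 by the mean of the salt libraries.

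Ug9305 (1625 bp) had an RPKM of 3070 in control 1, 2627 in control 2, 2945 in salt 1 and 2582 in salt 2. Ug87148 (1123 bp) had 3374 in control 1, 1593 in control 2, 3255 in salt 1 and 2065 in salt 2, and Ug35527 (1605 bp) had 3006, 1493, 3001 and 1453 in the same order. Both were high in replicate 1 and low in replicate 2 whatever the treatment. Ug34881, with 280 bp the shortest of the 10, had an RPKM of 2311 in control 1, 1857 in control 2, 2172 in salt 1 and 1845 in salt 2. Of the 10, 8 lay within 0.5 on the log2 scale in both pairs, the exceptions being Ug12915 and Ug72284. All 10 were below 0 in pair 1, from -0.48 to -0.04, but 3 of them were above 0 with library sizes alone and 1 with upper quartile factors.

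**Figure D2:**
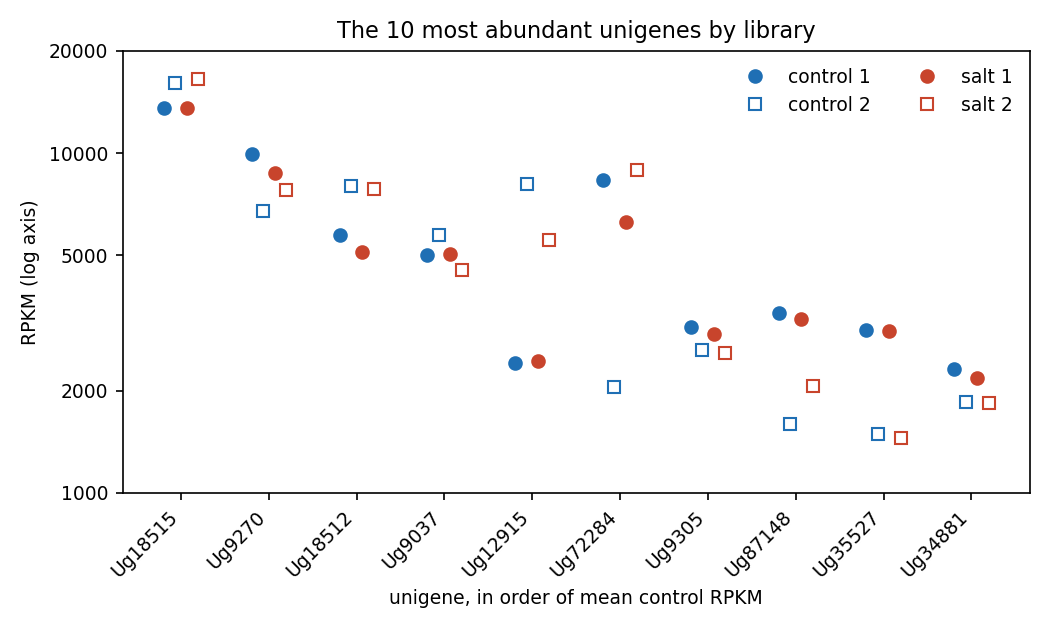
RPKM on a log axis of the 10 most abundant unigenes in each library (blue control, red salt, filled circles replicate 1, open squares replicate 2), 1 point per library. Points of one replicate number tend to lie together, as in Ug35527 (3006 and 3001 in replicate 1, 1493 and 1453 in replicate 2), and Ug72284 stands low in control 2 only (2052).

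The limit of 200 fell in a dense part of the ranking. The last unigenes inside were Ug22352, with a mean control RPKM of 367.2, and Ug113517, with 366.8. The first outside were Ug18513, with 366.3, and Ug86012, with 365.8. Ranked by each control library alone, 166 of the 200 were among the 200 highest of control 1 and 147 among those of control 2, and the lists of the 2 control libraries shared 113 unigenes. By the mean of the salt libraries, 173 of the 200 were among the 200 highest. In place of the others, 27 unigenes stood there. Of these, 2 were 2-fold or more higher under salt in both pairs (0.59% of tested unigenes). A further 12 were so in pair 2 only, 1 in pair 1 only and 12 in neither. The 27 were picked by high salt values and by not being among the 200. Higher ratios are thus built into the choice, and nothing is read from these counts. Ug74595, among the 2, stood at rank 1041 by the control mean and is numbered in the study, so the rule leaves it out. Ug87846 had an RPKM of 187 in control 1, 26.2 in control 2, 165 in salt 1 and 1786 in salt 2, so salt 2 alone was high. Ug87646 had 411 in control 1, 71.2 in control 2, 877 in salt 1 and 922 in salt 2, so both salt libraries lay above both controls. Both were named after their values were seen.

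The comparison of salt with control asks whether abundant transcripts held their level or moved during the treatment. No member passed the test. With edgeR's quasi-likelihood test and Benjamini-Hochberg adjustment over 62900 unigenes, 0 of the 200 had an adjusted p of 0.05 or less, against 0% of all those tested. At an unadjusted p under 0.05 edgeR counted 0 of the 200, against 0.205% of all those tested, and the smallest p among the 200 was 0.0584 (Ug62444). DESeq2 called 0 of the 200 at an adjusted p of 0.05, against 0.00318% of those tested, and had 3 higher and 3 lower at an unadjusted p under 0.05, against 0.515%. With a term for the replicate number DESeq2 called 2 of the 200 at an adjusted p of 0.05, against 0.266% of those tested. With the same term edgeR called 0 at an adjusted p of 0.05, and at an unadjusted p under 0.05 it had 5 higher and 8 lower of the 200, against 3.43% of those tested. A test on the summed reads of each group, which takes reads and not libraries as replicates, called 174 of the 200, against 29.1%. A p that misses the threshold does not show that a level did not differ. The 200 were chosen on control values that enter all these tests, so the calls among them are a description. All 200 passed the filter on low counts. The biological coefficient of variation, the spread between libraries of a group that edgeR estimates beyond counting error, was 0.671 over all tested unigenes and had a median of 0.515 over the 200.

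Within the pairs, 113 of the 200 (56.5%) differed from their control by less than 0.5 on the log2 scale in both pairs. This was so in 35.4% of all tested unigenes, which have far fewer reads. Among the next 800 unigenes of the ranking the share was 57.4%, so it was not particular to the 200. Since the 200 were chosen on the control values that enter these ratios, nothing is read from the difference to all tested unigenes. Those steady in both pairs were 29 of the 50 highest and 84 of the other 150. In pair 1, 180 of the 200 lay within that limit (67.9% of tested unigenes). In pair 2 it was 118 (48.8%), or 117 without Ug52046, which had no reads in that pair and whose ratio of 0 comes from the added 0.1 CPM. The median log2 ratio of the 200 was -0.10 in pair 1, with quartiles of -0.23 and 0.07, and 0.10 in pair 2, with quartiles of -0.31 and 0.50. Over all tested unigenes the medians were -0.02 in pair 1 and 0 in pair 2. Counting error was small beside these values, with a median half-width of the 95% interval of 0.03 in pair 1 and 0.04 in pair 2, except for Ug113650, whose 6 reads in salt 1 gave 1.15.

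In 110 of the 200 the log2 ratio had opposite signs in the pairs, against 50.9% of tested unigenes, in 33 it was above 0 in both (23% of tested unigenes) and in 56 it was below 0 in both (24.3%), while Ug52046 had 0 reads in both libraries of pair 2. The split depended on the scaling, since library sizes alone gave 105 with opposite signs, 48 above 0 in both and 46 below, and upper quartile factors gave 107, 48 and 44. Both salt libraries lay above both control libraries in 8 of the 200, against 8.1% of tested unigenes, and below them in 9 of the 200, against 8.09%.

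By their medians, differences between libraries of one group were larger than those within pairs. The median absolute log2 ratio of the 200 was 0.18 in pair 1 and 0.41 in pair 2, against 0.94 between the control libraries and 0.68 between the salt libraries. In the same order it was 0.31, 0.52, 0.80 and 0.80 over all tested unigenes. Over the next 800 of the ranking it was 0.15, 0.40, 0.64 and 0.59. The choice by the control mean lets in unigenes high in a single control library, which enters the difference between the controls. A difference of 2-fold or more was seen in 8 of the 200 in pair 1 (10.7% of tested unigenes), 48 in pair 2 (23.8%), 94 between the control libraries (40.7%) and 65 between the salt libraries (40.7%). In the same order these were 4%, 24%, 47% and 32.5% of the 200. Among the next 800 the shares were lower, at 1.6%, 15.9%, 33.5% and 30.4%. In 142 of the 200 the control libraries differed more than the libraries of either pair, against 56.4% of tested unigenes and 63.1% of the next 800. Of the 113 steady unigenes, 37 differed 2-fold or more between the control libraries, against 28.5% of the steady unigenes among all tested.

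**Figure D3:**
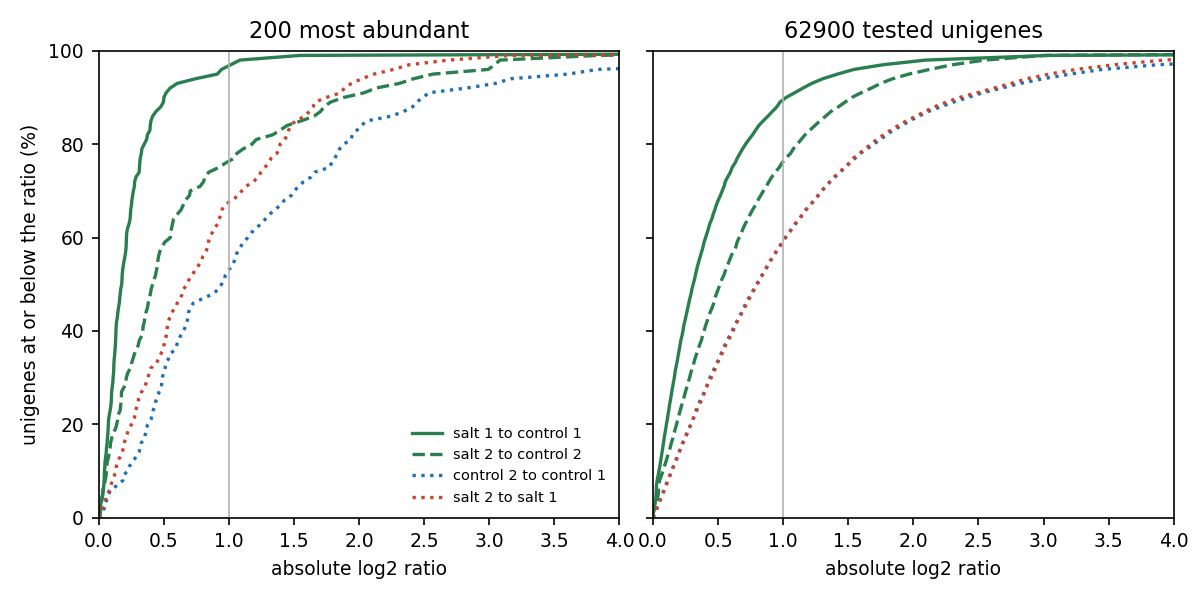
Percent of unigenes (vertical axis) with an absolute log2 ratio at or below the value on the horizontal axis, for the 200 most abundant unigenes (left) and the 62900 tested unigenes (right). Green lines are the pairs (solid pair 1, dashed pair 2), dotted lines are libraries of one group (blue control, red salt), the grey line marks 2-fold and ratios above 4 are not drawn. For the 200 the medians are 0.18, 0.41, 0.94 and 0.68 for pair 1, pair 2, controls and salt libraries.

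The steadiest of the 200 kept their level to within a few percent in both pairs. Ug125964 (912 bp) had an RPKM of 402 in control 1, 404 in control 2, 408 in salt 1 and 415 in salt 2, and was alike in all libraries. Ug8911 (1614 bp) had 1186 in control 1, 1147 in control 2, 1254 in salt 1 and 1204 in salt 2. The log2 ratios of Ug8911 were 0.01 and 0.06, the salt libraries lay above the controls, and the edgeR p was 0.928.

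The other 3 of the 5 steadiest held within pairs but not between replicate numbers. Ug22468 (356 bp) had an RPKM of 1245 in control 1, 597 in control 2, 1299 in salt 1 and 618 in salt 2. Ug113620 (689 bp) had 564 in control 1, 236 in control 2, 575 in salt 1 and 235 in salt 2. Ug89416 (233 bp) had 2377 in control 1, 1454 in control 2, 2546 in salt 1 and 1525 in salt 2. In each of these the replicate 1 libraries were high and the replicate 2 libraries low.

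Of the 200, 3 (1.5%) were 2-fold or more higher under salt in both pairs, against 0.59% of tested unigenes and 0.125% of the next 800. With so few unigenes, chosen on their control values, these shares are a description. Ug125351 (1049 bp) held rank 57 by the control mean and 11 by the salt mean, with an RPKM of 1231 in control 1, 544 in control 2, 2743 in salt 1 and 1766 in salt 2. The groups did not overlap, the log2 ratios were 1.08 and 1.69, and edgeR gave a log2 fold change of 1.30 (SE 0.55, unadjusted p 0.0636, adjusted p 0.99998). When DESeq2 was fitted with a term for the replicate number, its adjusted p was 0.0442. Ug62444 (403 bp) had an RPKM of 1083 in control 1, 204 in control 2, 2389 in salt 1 and 2923 in salt 2, and stood at rank 89 by the control mean and 9 by the salt mean. Its log2 ratios were 1.07 and 3.83 and the groups did not overlap. Ug126659 (442 bp) had 769 in control 1, 141 in control 2, 1632 in salt 1 and 1526 in salt 2. In both Ug62444 and Ug126659 control 2 was low, and the salt libraries differed from each other by 0.39 and 0.01 on the log2 scale.

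Ug75006 and Ug22615 followed. Ug75006 (1491 bp) had an RPKM of 880 in control 1, 765 in control 2, 1401 in salt 1 and 1126 in salt 2, with log2 ratios of 0.60 and 0.55. It was the most even of the higher unigenes, since both groups were tight and did not overlap, but its edgeR p was 0.197. Ug22615 (1078 bp) had 770 in control 1, 903 in control 2, 2308 in salt 1 and 1240 in salt 2. Its groups did not overlap either, and its log2 ratio was 1.51 in pair 1 but 0.45 in pair 2.

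A single unigene (0.5% of the 200), Ug35802 (2184 bp), was 2-fold or more lower in both pairs. This was so in 1.07% of tested unigenes and 0.5% of the next 800. Ug35802 had an RPKM of 133 in control 1, 746 in control 2, 62.5 in salt 1 and 152 in salt 2. The groups overlapped, since salt 2 lay above control 1. The log2 ratios were -1.16 and -2.30, and edgeR gave -2.07 (SE 0.97, unadjusted p 0.0849, adjusted p 0.99998). The DESeq2 fit with a replicate term gave an adjusted p of 0.0235.

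In the next 3 lower unigenes control 2 was again the highest library. Ug88091 (2121 bp) had an RPKM of 447 in control 1, 2161 in control 2, 245 in salt 1 and 633 in salt 2. Ug6502 (2168 bp) had 86.7 in control 1, 1098 in control 2, 47.8 in salt 1 and 141 in salt 2. Ug8941 (909 bp) had 81.2 in control 1, 654 in control 2, 51.3 in salt 1 and 320 in salt 2, so both libraries of replicate 2 were high. In all 3 salt 2 lay above control 1, so the groups overlapped. Ug60965 (912 bp) differed from them, at 697 in control 1, 511 in control 2, 534 in salt 1 and 328 in salt 2. With its TMM-scaled values both salt libraries lay below both controls, by RPKM salt 1 lay above control 2, and the log2 ratios were -0.46 and -0.65.

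In 36 of the 200 the ratio was within 0.5 in pair 1 and 2-fold or more in pair 2. This was so in 13.9% of tested unigenes and in 93 of the next 800. Of the 36, 22 were higher in pair 2 (6.37% of tested unigenes) and 14 were lower (7.53%). The reverse, within 0.5 in pair 2 with reads there and 2-fold or more in pair 1, was seen in 1 of the 200, Ug22615, against 3.45%. The control libraries enter both the choice of the 200 and these ratios, so nothing is read from these counts.

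**Figure D4:**
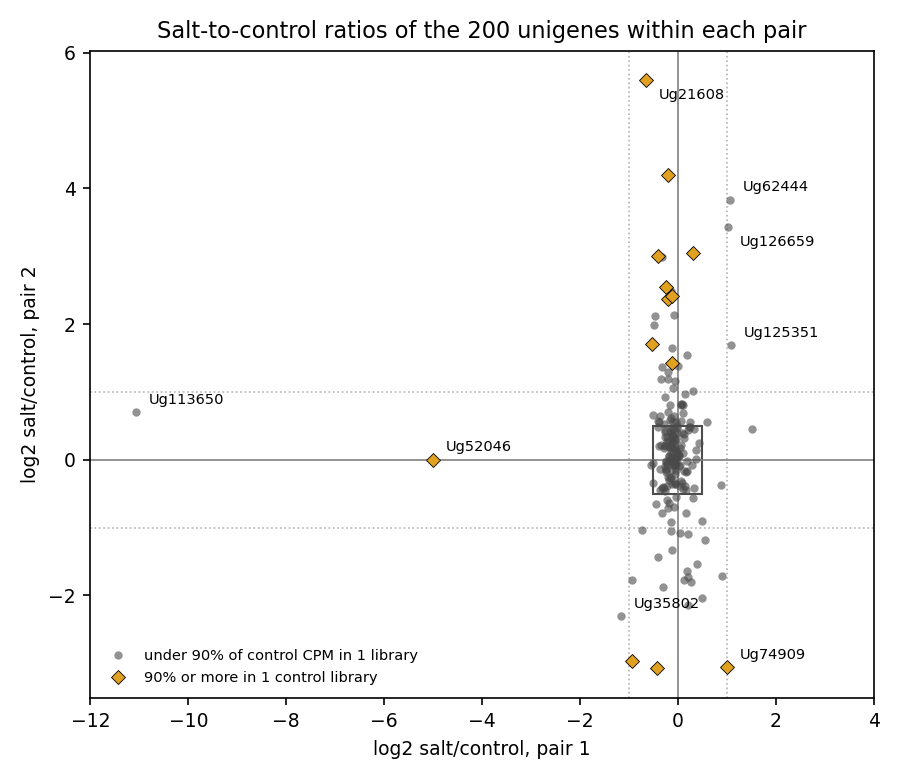
Log2 salt-to-control ratio in pair 1 (horizontal) against pair 2 (vertical), 1 point per unigene of the 200. Orange diamonds have at least 90% of the summed CPM of both controls in 1 of them, dotted lines mark 2-fold, and the square marks the 113 unigenes within 0.5 in both pairs. Most points form a vertical band, with 180 within 0.5 in pair 1 and 118 in pair 2.

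Some unigenes owed their place among the 200 to one control library. In 13 of the 200, 90% or more of the control CPM lay in a single control library, against 7.98% of tested unigenes, with 10 in control 1 and 3 in control 2. Their ranks ran from 21 to 196 and their lengths from 230 to 2168 bp. None of the 13 was steady in both pairs. Of the 10 high in control 1, 9 were 2-fold or more higher in salt 2 than in control 2, the exception being Ug52046, and all 3 high in control 2 were 2-fold or more lower in salt 2. Control 2 enters both the choice of the 13 and the ratio of pair 2, so nothing is read from these directions. The choice of the 200 also rests on high control values. When the 200 were chosen by control 1 alone the median log2 ratio of pair 2 was 0.20, and by control 2 alone it was -0.08.

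The largest differences between control libraries illustrate this. Ug21608 (1366 bp) had 22546 reads in control 1, 267 in control 2, 14691 in salt 1 and 12541 in salt 2. Ug21282 (791 bp) had 48878 in control 1, 998 in control 2, 43286 in salt 1 and 17665 in salt 2. In both, control 2 alone was low, so that pair 2 gave log2 ratios of 5.59 and 4.19 where pair 1 gave -0.65 and -0.20. Ug88289 (770 bp) had 24704 reads in control 1, 331 in control 2, 31332 in salt 1 and 2648 in salt 2, so both libraries of replicate 2 were low. Ug74909 (883 bp) had 791 in control 1, 23552 in control 2, 1624 in salt 1 and 2742 in salt 2, so that control 2 alone was high and the ratios were 1.01 in pair 1 and -3.05 in pair 2.

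Ug52046 (609 bp) was the only one of the 200 without reads in a library. It had 11930 reads in control 1 and 378 in salt 1, and 0 in both libraries of replicate 2. Against the 3 reads that a count of 0 allows, control 1 was at least 3154-fold higher than control 2. Its log2 ratio in pair 1 was -5.00, and pair 2 gave none.

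Several of the 200 carry consecutive numbers, and 20 of them form 8 runs, the longest of 5. No source used here says what the numbering follows, and without sequences it was not tested whether neighbours are parts, variants or copies of one gene between which reads could be split. Within consecutive pairs of numbers the log2 ratio of control 2 to control 1 differed by a median of 0.48 (12 pairs), against 1.36 over all pairs of the 200. In pair 2 the ratio of salt to control differed by a median of 0.34 between neighbours, against 0.75 over all pairs. These medians are a description, since neighbours share libraries and may share reads.

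Ug122815 to Ug122819, of 446 to 2842 bp, made the longest run. Ug122816, the most abundant of them, had 50759 reads in control 1, 151100 in control 2, 68074 in salt 1 and 50347 in salt 2. Control 2 was high in all 5, by log2 1.77 to 2.44 over control 1. Salt was slightly higher in pair 1, by 0.13 to 0.40, and lower in pair 2, at -2.14 to -1.54. The run Ug21280 to Ug21282 showed the opposite, with control 2 low by -5.24 to -0.81 and pair 2 ratios of 1.65 to 4.19. Ug86319 and Ug86320 were low in control 2 as well, at -3.22 and -3.16 against control 1, and had pair 2 ratios of 2.41 and 2.55. Ug6501 and Ug6502 were high in control 2, at 3.80 and 3.70, and had pair 2 ratios of -3.07 and -2.97. Neighbours did not always go together, since Ug9270, the second most abundant unigene, was lower in control 2 than in control 1, at -0.52, and Ug9271 was higher, at 2.01. The remaining runs, Ug34881 with Ug34882 and Ug48647 with Ug48648, were lower in control 2 in both members, at -0.28 and -0.55 and at -1.99 and -0.69.

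**Figure D5:**
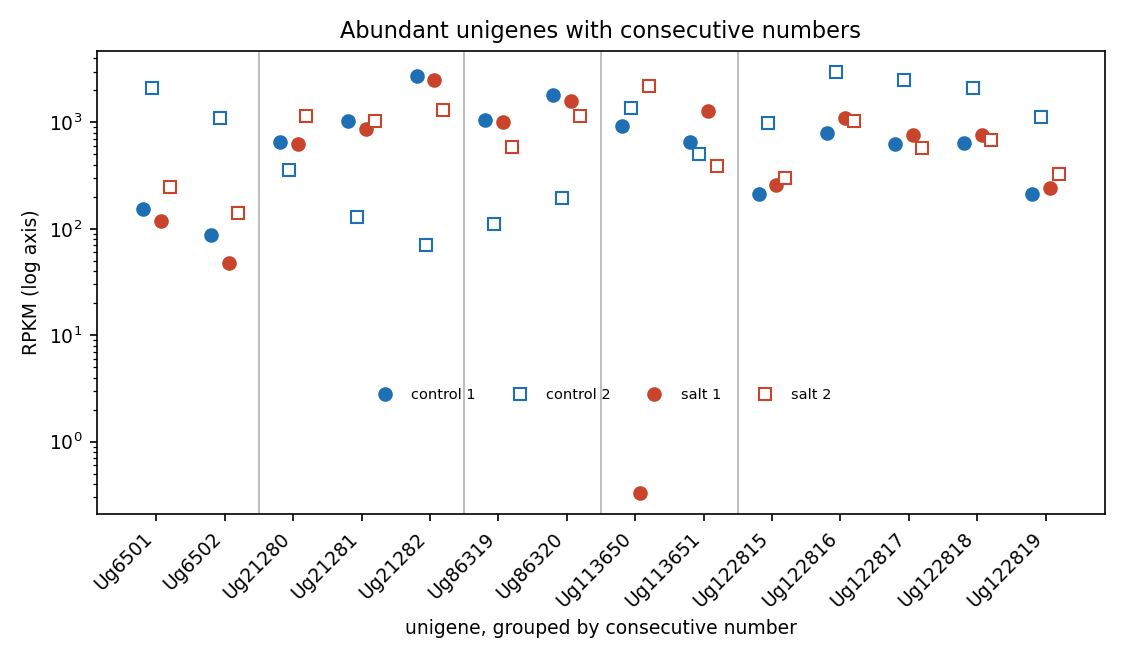
RPKM on a log axis of 14 of the 20 abundant unigenes with consecutive numbers, 1 point per library (blue control, red salt, filled circles replicate 1, open squares replicate 2), with grey lines between runs. Control 2 lies apart in the same direction within 4 of the 5 runs drawn, and in Ug113650 and Ug113651 salt 1 lies apart at 0.327 in Ug113650 and at 1285 in Ug113651.

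Ug113650 and Ug113651, of 843 and 861 bp, stood out after their values were seen. Ug113650 had 17383 reads in control 1, 20387 in control 2, 6 in salt 1 and 31951 in salt 2. Ug113651 had 12765 in control 1, 7740 in control 2, 24083 in salt 1 and 5760 in salt 2. Ug113650 was thus nearly empty in salt 1, the library where Ug113651 was highest. The log2 ratios were -11.07 and 0.70 for Ug113650 and 0.89 and -0.38 for Ug113651. Summed, they had 30148 reads in control 1, 28127 in control 2, 24089 in salt 1 and 37711 in salt 2, with log2 ratios of -0.35 and 0.47. Whether reads were moved from one to the other by the assembly or the counting was not tested.

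The unigenes numbered around the most abundant one, Ug18515, were uneven. Ug18512 and Ug18517 were also among the 200, at ranks 3 and 42, and Ug18513 was the first outside the limit. Ug18517 (1428 bp) had 26509 reads in control 1, 29938 in control 2, 25946 in salt 1 and 24974 in salt 2. Ug18511 (394 bp), at rank 483 by the control mean and 86 by the salt mean, had 2667 reads in control 1, 513 in control 2, 4869 in salt 1 and 5622 in salt 2. Its salt libraries were both above its control libraries, while the log2 ratios in pair 1 and pair 2 were -0.24 and -0.03 for Ug18512 and -0.06 and -0.21 for Ug18517.

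Across the whole numbering the 200 were not spread evenly. Only Ug152150 among them was numbered 130000 or more, although 38309 unigenes (22.8% of all) have such numbers. These 38309 held between 0.767% and 1.80% of the reads of a library, and 2605 of them were among the 62900 tested. Ug152150 (709 bp) had an RPKM of 757 in control 1, 379 in control 2, 756 in salt 1 and 1666 in salt 2, and was low in control 2 and high in salt 2.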

How the data were processed

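Per the methods, the authors joined clean reads into unigenes with Trinity, without a genome, and obtained expression values with SOAP. The deposited table gives the length of each unigene, its raw counts in each library and its RPKM in each library, without gene names. The deposited RPKM equalled counts divided by length and library total for every unigene, with a largest error of 5e-05. No source used here says how read pairs and multiply matching reads were handled. Each column was matched to a library by its header and label.

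The main test on counts was edgeR 4.0.16 in R 4.3.3: genes were filtered by filterByExpr (count 10, total 15), scaled by TMM and compared with glmQLFTest, with treatment alone in the model. Adjusted p-values are Benjamini-Hochberg over all 62900 unigenes left by the filter. DESeq2 1.42.0 and limma 3.58.1 were alternatives, and summaries used Python 3.11.15 with pandas 2.3.3. Labels name 2 biological replicates per group, each of 3 plants.

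The unigenes named are the 10 highest by control RPKM, the 5 higher and 5 lower under salt in both pairs by the smaller ratio, the 5 steadiest, the 5 with the largest difference between controls, those past a test, those next to the limit, and others given as examples after their values were seen. The members, lists and tests were chosen with earlier results of these data known. Partly legible numbers in the network drawing matched none of the members.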

Additional observations from a re-analysis of the deposited data

How the results depend on the processing

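The samples share a replicate number, which no label ties to a batch, and deviations from the group means correlated between same-numbered libraries at r = 0.69 over the tested unigenes (2 pairs, genes not independent). With the replicate number as a block, edgeR called 0 of the 200 and DESeq2 called 2 (Ug125351 and Ug35802). Summing the reads of each group, which takes reads and not libraries as replicates, called 174 of the 200 (97 higher and 77 lower). Upper quartile factors, library sizes alone, DESeq2, no filter, a CPM of 1 or more in 2 libraries, limma on log2 RPKM and leaving out each library (range 0 to 0) called 0. Leaving out a library leaves 1 pair, in which the unigenes 2-fold higher ranged from 5 to 27, those 2-fold lower from 3 to 21 and the steady ones from 118 to 180. Choosing the 200 by control CPM gave 1 that was 2-fold higher in both pairs, and choosing by control replicate 2 alone gave 1 higher and 2 lower. Choosing by control replicate 1 alone or by all 4 libraries gave 0 lower. With control replicate 2 alone the median log2 ratio of pair 2 was -0.078, a change of sign, and with control replicate 1 alone it was 0.20. The difference in the share of reads ranged from -3.85 to 0.66 percentage points when each library was left out. At a limit of 80%, 33 of the 200 had their control CPM in 1 library, and 7 at 90% when chosen by control CPM. Leaving out the 13 such unigenes, an alternative added after seeing the data, could not change the counts of 3, 1 and 113. None of the 13 was among the unigenes counted there. Counting error on the log2 scale had a half-width of at most 1.15 in pair 1 (Ug113650) and 0.21 in pair 2, where Ug52046 had no reads and gave none.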
